A study of Zea mays with 54 samples.

Results

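Roots of the maize (Zea mays) lines SF1 and SM1 grown at high phosphate (P) supply differed in the transcript level of 9464 of 25772 tested genes, or 36.7%, and 473 features were expressed in one line with no read in the other. The comparison rests on 6 of the 54 RNA-sequencing libraries of the series, 3 replicates of SF1 at high P and 3 of SM1 at high P, taken by their labels from the first of 2 count tables. The series covers 9 genotypes, each at high and low P with 3 libraries per group. The 6 libraries at low P of SF1 and SM1, and the 24 libraries of EP1, F2, F160 and F142, share the table and serve here as readouts that the comparison did not use. Every group is root tissue of 1 genotype at 1 P supply, and the labels name no transgene, mutation or further treatment. The sources used here give no plant age, P concentration or growth medium. They also leave unsaid whether a replicate came from 1 plant or from several, so the p-values reflect the spread among these samples alone, and part of it may be technical.

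Phosphate is the form in which roots take up phosphorus, and a plant short of it changes root growth, phosphate transport, phosphate recycling from its own molecules, and membrane lipids. At ample phosphate that response is largely off. Whether it was off in both lines at high P could not be checked here, as no phosphate gene could be named. Maize lines are known to differ widely in gene content and in regulatory sequence, so that a gene of the B73 reference line may be missing, altered or not transcribed in another line. Reads here were aligned to the B73 genome. A gene that is absent from a line, a gene that is not transcribed and a gene whose sequence is too different for its reads to align cannot be told apart when the count is 0. Differences from the B73 sequence can also change counts above 0, in every comparison of lines given here. Their part in the called differences and in the distances between lines was not tested. In whole roots, fewer cells of a type and less RNA per cell cannot be told apart either.

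The high P libraries held 17773921, 20963419 and 21183980 counts in SF1 and 20557562, 25541701 and 19002989 in SM1. A count of 0 in 1 of these libraries allowed up to 0.111 to 0.162 CPM, taking 3 counts as the limit, which covers counting error only. CPM is the count scaled to a common library size after TMM scaling across libraries. The first SM1 library stood apart from the second and the third. Its correlation with each, over log2 CPM of expressed genes, was 0.945, against 0.987 between those, and 10.3% and 9.92% of genes lay at least 2-fold apart against 1.33%. The SF1 libraries correlated at 0.981 to 0.988. The chi-square between libraries of a group was at least 8.52 per degree of freedom, above sampling noise, so no library was taken for a copy of another. None of the 44146 nuclear gene model IDs could be paired with a name, whereas all 365 organelle IDs could. Of 19 gene lists for root functions and cell types, 1 matched any symbol and 0 had 3 tested members, so pathways are not described and the root label was not checked against markers. Plastid genes, which green tissue transcribes heavily, had 1 to 9 counts in each of the 6 libraries.

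Of all tested genes, 4811 (18.7%) were higher and 4653 (18.1%) lower in SF1 (edgeR quasi-likelihood test, adjusted p under 0.05). The median log2 fold change of all tested genes, SF1 over SM1, was 0.001, which TMM scaling centres. Scaled by total counts it was 0.067, and 4923 genes were called higher and 3914 lower. Differences of at least 2-fold were called for 5431 genes, or 21.1% of those tested, with 2877 (11.2%) higher and 2554 (9.91%) lower in SF1. Larger differences thinned out slowly. At least 8-fold differences numbered 1072 higher and 970 lower, and at least 32-fold differences 690 higher and 644 lower. These classes use fitted fold changes. For a gene with 0 counts in one line the fitted size depends on the prior count and is no bound. The larger classes can therefore hold weakly expressed genes whose counts allow only a smaller fold. The other 4033 called genes differed by under 2-fold. For 9443 of the 9464 called genes the 3 SF1 libraries and the 3 SM1 libraries did not overlap. Such non-overlap was also common over all tested genes, at 52.6%.

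**Figure D1:**
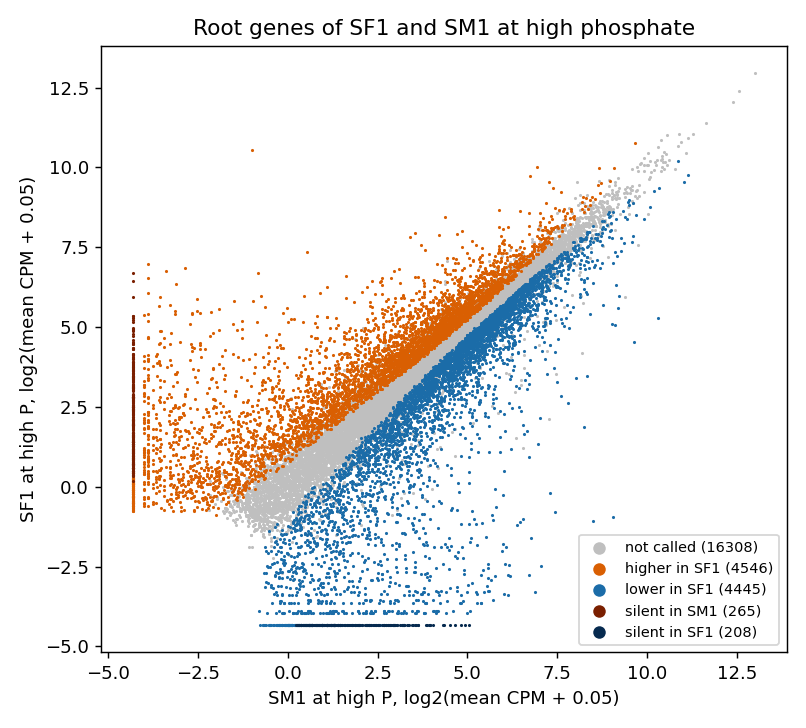
Mean level at high P of each tested gene in SF1 (vertical axis) and SM1 (horizontal axis), 3 libraries each, as log2 of mean CPM plus 0.05. Orange and blue points are genes called higher and lower in SF1, dark points are the 265 genes silent in SM1 and the 208 silent in SF1, and grey points are the 16308 genes not called.

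Differences of at least 2-fold were called less often in classes with a higher mean level over both lines. Below a mean of 1 CPM, 48.9% of 2029 tested genes were called with at least 2-fold difference. The share was 30.7% of 8756 genes at 1 to 10 CPM, 12.3% of 12926 genes at 10 to 100 CPM and 7.86% of 2061 genes above that. A gene with a low mean can pass the filter on low counts through the line where it is high. No weight therefore rests on the share below 1 CPM, and the share at 1 to 10 CPM can be raised in the same way. The most abundant transcripts were largely common to both lines. By FPKM, a level per gene length, 69 of the 100 most abundant genes of SF1 were also among the 100 of SM1. Of the 100 of SM1, 26 were called lower in SF1 and 3 higher. Of the 100 of SF1, 17 were called higher in SF1 and 8 lower. Over all tested genes the shares were 18.7% higher and 18.1% lower, so the 17 of SF1 are near the background. Each of these lists was chosen by its level in one of the compared lines, which favours genes high in that line.

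Without the first SM1 library, 11591 of 26364 tested genes (44%) were called, 5936 higher and 5655 lower in SF1. Of these, 9164 were also called with it, and 9164 had the same direction in both. At least 2-fold differences then numbered 6044. The biological coefficient of variation, the spread between replicates that edgeR estimated, was 0.222 with all 6 libraries.

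The largest differences were between a clear level and none. Zm00001d003090 stood at 103, 111 and 93.8 CPM in the SF1 libraries and had 0 counts in each SM1 library, at least 2242-fold higher in SF1 against a floor of 3 counts over the SM1 group. Zm00001d043124 stood at 80, 95.3 and 86.5 CPM in SF1 and had 0 counts in each SM1 library, at least 1907-fold higher. In the other direction, Zm00001d037149 had 0 counts in each SF1 library and 30.9, 37.5 and 31.2 CPM in SM1, at least 699-fold higher in SM1. Zm00001d035413 had 0 counts in each SF1 library and 35.8, 29.8 and 25.7 CPM in SM1, at least 641-fold higher. These 4 gene models, 2 per direction, have the largest fitted log2 fold changes among called genes with no overlap and at least 5 CPM in the higher line. Their edgeR adjusted p-values ran from 1.61e-05 to 6.65e-05.

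At low P, in libraries that took no part in choosing them, all 4 were again higher in the same line, with lower values in that line than at high P. Zm00001d003090 stood at 47, 38.7 and 57.1 CPM in SF1 at low P, and at 0.108, 0.816 and 0.19 CPM in SM1. Zm00001d043124 stood at 21.3, 20.8 and 32.2 CPM in SF1 and at 0.0538, 0.377 and 0.19 CPM in SM1. Each of these gene models thus had reads in all 3 SM1 libraries at low P, far below SF1. Zm00001d037149 stood at 6.29, 7.22 and 9.54 CPM in SM1 at low P, with a count in 1 of 3 SF1 libraries, at 0.0905 CPM. Zm00001d035413 stood at 13.1, 18.2 and 17.7 CPM in SM1 at low P, with a count in 1 of 3 SF1 libraries, at 0.0469 CPM. The lines did not overlap at low P for any of the 4, and the edgeR adjusted p there was at most 2.06e-05. All 4 passed the filter at low P through the expressing line, so these calls add nothing to the values.

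**Figure D2:**
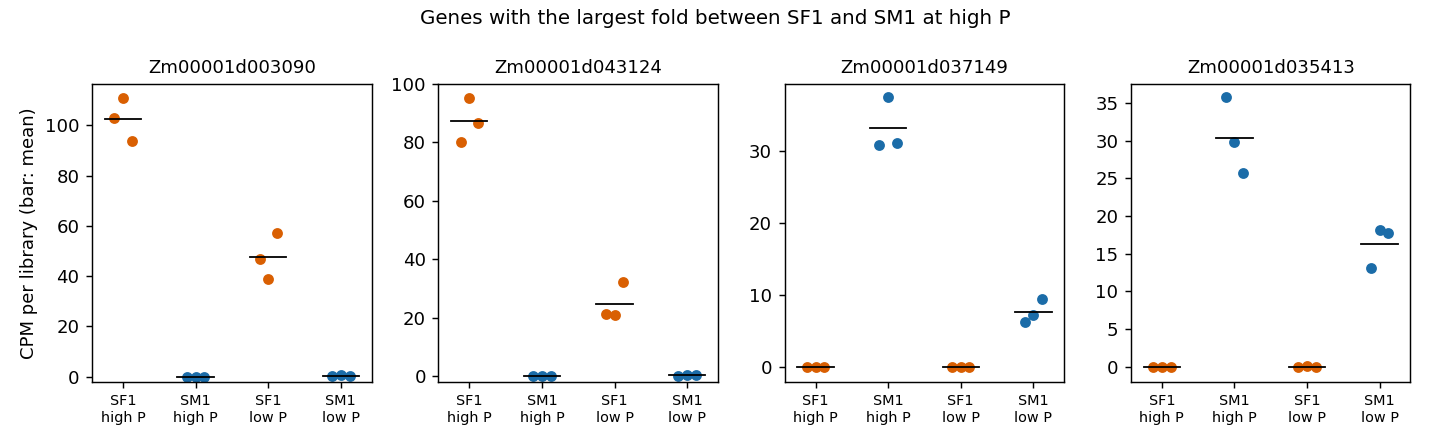
CPM of the 4 gene models with the largest fold at high P in each library of SF1 (orange) and SM1 (blue), at high and low P, on linear axes that differ between panels. Points are libraries and bars are means of 3; each gene model is high in the 6 libraries of one line and at or near 0 in the 6 of the other.

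A second ranking used the difference of mean CPM, which favours abundant genes, and was chosen after the values were seen. It was limited to nuclear gene models called without overlap, at least 2-fold apart and with at least 5 CPM in the higher line. The first in each direction were 2 other gene models. Zm00001d034382 stood at 1743, 1211 and 1476 CPM in SF1 and at 0.905, 0.148 and 0.304 CPM in SM1, 3268-fold apart as a ratio of means. Its log2 fold change was 11.75 ± 0.58 (SE, n = 3 per line; edgeR adjusted p = 2.98e-05). SM1 was the exception among the 6 lines of the table. EP1 ranged from 715 to 1828 CPM, F2 from 1233 to 2145, F142 from 1036 to 1339.8 and F160 from 268 to 516. At low P it stood at 204, 349 and 130.1 CPM in SF1 and at 0.161, 0.628 and 1.19 CPM in SM1, again without overlap. Zm00001d029558 was abundant in both lines. It stood at 958, 892 and 751 CPM in SF1 and at 1899, 2695 and 2229 CPM in SM1. Its log2 fold change was -1.39 ± 0.2 (SE, n = 3 per line; edgeR adjusted p = 0.00196). SM1 was also above EP1, F2, F160 and F142, whose libraries ranged from 525 to 1791 CPM. At low P its SM1 libraries reached 4563, 9134 and 8173 CPM and its SF1 libraries 1917, 1823 and 1947 CPM.

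A gene counted as expressed in one line and silent in the other when it had at least 1 CPM in each of the 3 libraries of one line and 0 counts in each of the 3 of the other. Under this rule, 265 of 22513 genes expressed in SF1 (1.18%) were silent in SM1, and 208 of 21947 genes expressed in SM1 (0.948%) were silent in SF1. The measured values chose both sets, so their difference at high P is a description and has no test. All 265 of the first set were nuclear gene models, as were 206 of the second, whose other 2 members were non-coding RNA features. Most were weakly expressed. The median level of the SF1 set in SF1 was 4.14 CPM, with quartiles of 2.19 and 8.77, and that of the SM1 set in SM1 was 2.67 CPM, with quartiles of 1.84 and 6.11. Per length, the medians were 4.71 FPKM in the SF1 set and 3.32 FPKM in the SM1 set, against 9.15 and 9.1 FPKM over all genes expressed in SF1 and in SM1. The gene models were also short. Median length was 1000 bases in the SF1 set and 1044.5 in the SM1 set, against 1888 and 1911 over all expressed genes. A short, weakly expressed gene reaches 0 counts more readily, and the part of that in these values was not tested.

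Membership thinned out smoothly at the limits of the rule. With 0 counts in SM1, 46 genes had their lowest SF1 library between 1 and 1.5 CPM, just inside, and 100 between 0.5 and 1 CPM, just outside. The same counts were 64 and 100 for SM1 against SF1. Another 164 genes expressed in SF1 had 1 to 3 counts in all over the SM1 libraries, and 174 genes expressed in SM1 had 1 to 3 counts over the SF1 libraries. At 5 CPM or more in each library of the expressing line, 101 genes of the SF1 set and 56 of the SM1 set met the rule. Without the first SM1 library the sets held 325 and 232 genes, since the rule then asked for fewer libraries.

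The low P libraries give an independent readout of both sets. Genes silent in a line at high P stayed near silence there. In SM1 at low P, 0 of the 265 genes reached 1 CPM in any library, 135 had 0 counts in all 3 and 193 (72.8%) lay under 0.1 CPM in all 3. In SF1 at low P, 0 of the 208 genes reached 1 CPM in any library, 125 had 0 counts and 193 (92.8%) lay under 0.1 CPM. The limit of 0.1 CPM depends on depth, so the shares under it are not compared between the lines. A count of 2 was 0.108 CPM in the first SM1 low P library and 0.0905 CPM in the third SF1 low P library. The highest value was 0.816 CPM in SM1 and 0.588 CPM in SF1. Looser rules gave a few exceptions. With up to 3 counts allowed over SM1 at high P, 1 of 429 genes reached 1 CPM in every SM1 low P library. In the reverse direction 2 of 382 genes reached 1 CPM in every SF1 low P library, 1 of them at 5 CPM. Without the first SM1 high P library, 2 of 325 and 1 of 232 genes reached 1 CPM in any low P library of the silent line. Reads of both sets were not wholly absent from the silent line at low P. A count was seen for 19.6% to 30.2% of the SF1 set in the SM1 low P libraries and for 9.62% to 22.6% of the SM1 set in the SF1 low P libraries. Whether these few reads came from transcription in that line was not tested.

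The expressing line kept most of these genes at low P. At least 1 CPM in each low P library was found for 183 of 265 genes (69.1%) in SF1 and for 129 of 208 (62%) in SM1, against 94.9% and 95.9% of all genes expressed in SF1 and in SM1. The loss was mostly among genes with a mean under 5 CPM at high P. In the SF1 set, 114 of 118 genes with a mean of 5 CPM or more at high P remained. At 2 to 5 CPM 56 of 93 remained, and at 1 to 2 CPM 13 of 54. In the SM1 set these counts were 58 of 62, 49 of 83 and 22 of 63. The median ratio of low to high P level was 0.516 in the SF1 set and 0.572 in the SM1 set, against 0.98 and 0.967 over all expressed genes. The high P side chose the genes, so a ratio below 1 is in part built in. At low P, 36 members of the SF1 set and 31 of the SM1 set did not pass the filter on low counts. As 0 members reached 1 CPM in the silent line, the others passed through the expressing line. Their calls between the lines at low P therefore add nothing and are not taken as a result about these sets. The same rule applied to the low P libraries alone found 115 and 152 genes. Of these, 77 were in the SF1 set, 29.1% of the high P set and 67% of the low P set, and 72 were in the SM1 set, 34.6% and 47.4%.

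The sets differed in how many members the other 4 lines of the table expressed. At least 1 of those lines expressed 212 of the 265 genes silent in SM1 (80%) and 99 of the 208 genes silent in SF1 (47.6%). By line at high P, F142 expressed 167 of the 265 (63%), F160 164 (61.9%), F2 98 (37%) and EP1 90 (34%). Genes expressed in SM1 and silent in SF1 were expressed in fewer of the other lines. EP1 expressed 61 of the 208 (29.3%), F2 49 (23.6%), F142 21 (10.1%) and F160 15 (7.21%). For comparison, each of the 4 lines expressed 92.5% to 95.4% of all genes expressed in SF1 or in SM1. By gene, 53 of the SF1 set (20%) and 109 of the SM1 set (52.4%) were expressed in none of the 4 other lines, and 37 and 2 were expressed in all 4. No count in any library of any other line of the table, at either P level, was found for 5 genes of the SF1 set and 13 of the SM1 set. Without the first SM1 library, F160 expressed 64% of the SF1 set and 7.33% of the SM1 set, and F142 63.7% and 9.48%.

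**Figure D3:**
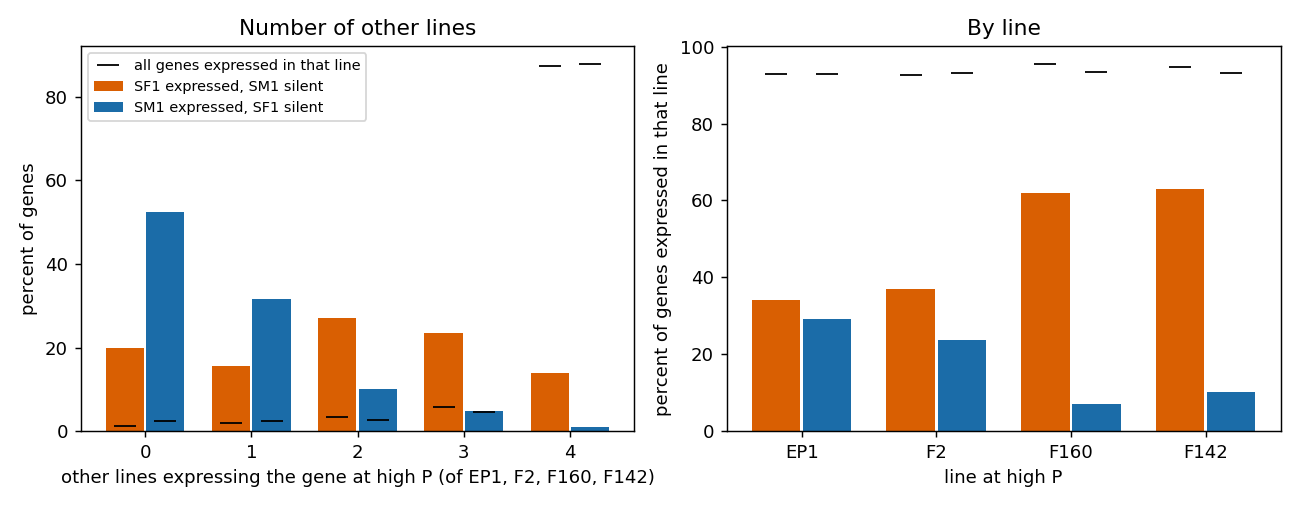
Genes expressed in SF1 and silent in SM1 (265, orange) and the reverse (208, blue) in the other 4 lines at high P, as the percent of each set by the number of other lines expressing the gene (left) and by line (right). Black dashes give the same percent for all genes expressed in SF1 or in SM1; F160 and F142 expressed 61.9% and 63% of the first set and 7.21% and 10.1% of the second.

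Over the whole profile, F160 and F142 were also closer to SF1 than to SM1, in a comparison chosen after the data were seen. Across 24203 genes, mean log2 CPM at high P correlated at 0.929 between SF1 and F160 and at 0.923 between SF1 and F142, and at 0.862 between SF1 and SM1. With EP1 and F2, SF1 correlated at 0.861 and 0.864 and SM1 at 0.842 and 0.856, so those lines stood at a similar distance from both. SM1 correlated at 0.846 with F160 and at 0.843 with F142. These are correlations across genes of 1 profile per line, and genes are not independent replicates. Of the 2554 genes at least 2-fold lower in SF1 than in SM1, F160 was nearer to SF1 for 83.3% and F142 for 80.9%, F2 for 56.6% and EP1 for 64.3%. Of the 2877 genes at least 2-fold higher in SF1, F160 was nearer to SF1 for 71.5%, F142 for 70.7%, F2 for 48.3% and EP1 for 53.6%. All 4 lines were nearer to SF1 for 918 of the lower genes (35.9%) and 731 of the higher genes (25.4%), and all 4 were nearer to SM1 for 111 and 269. Without the first SM1 library F160 was nearer to SF1 for 80.7% of the lower and 67.4% of the higher genes. The labels do not state how the 6 lines are related.

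The difference between the lines was then set beside the same contrast at low P, which shares no library with it. At low P, 10328 of 25570 tested genes (40.4%) were called, 5136 higher and 5192 lower in SF1. Across the 24744 genes tested at both levels, the log2 fold changes correlated at 0.913, a description across genes. Of 8894 genes called at high P and tested at both, 6152 (69.2%) were called in the same direction at low P, 116 (1.3%) in the opposite direction and 2626 were not called. Another 570 genes called at high P were not tested at low P, of which 562 differed by 2-fold or more at high P and 388 by 8-fold or more. Of all 4033 genes called under 2-fold, 53.1% were called the same way at low P. The share was 73.8% of all 5431 genes at 2-fold or more and 78.8% of all 2042 genes at 8-fold or more, counting those not tested as not called. Of 1654 genes at 8-fold or more and tested at both levels, 0 were called the opposite way. An opposite call was hardly open to genes that passed the filter at low P only through the line where they are high. Among such genes were 229 of the SF1 set and 177 of the SM1 set, all called the same way. No weight therefore rests on this 0, nor on the higher shares at 2-fold or more. Of 15850 genes not called at high P, 3636 (22.9%) were called at low P. Without the first SM1 library, 6887 of 10756 genes (64%) called at high P recurred the same way, and 79.5% of 5220 genes at 2-fold or more, beside 82.3% of 4869 with it, both among genes tested at both levels.

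**Figure D4:**
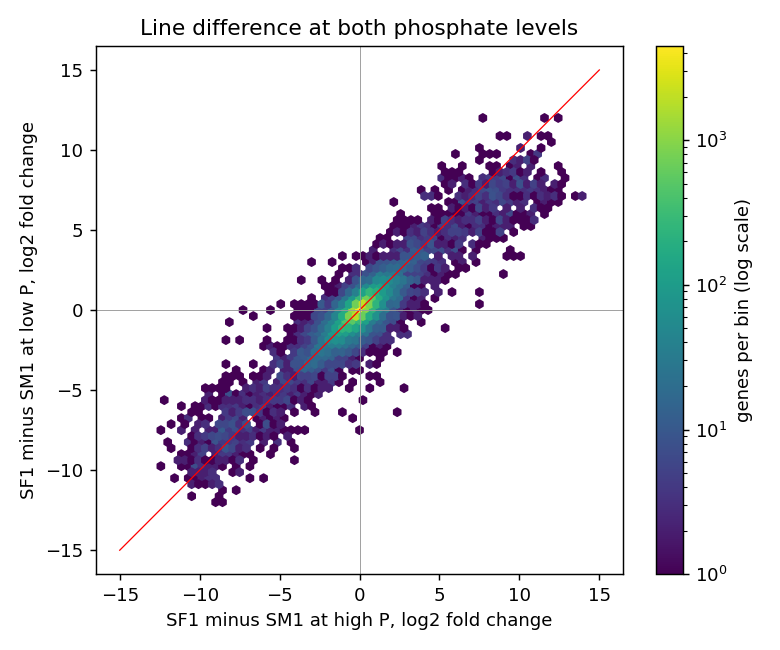
Log2 fold change of SF1 over SM1 at low P (vertical axis) against that at high P (horizontal axis) for the 24744 genes tested at both levels. Hexagons are coloured by the number of genes on a log scale and the red line marks equal values; most genes lie along it, with a correlation across genes of 0.913.

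Whether the line difference itself depended on P was tested as an interaction over the 12 libraries of SF1 and SM1. It was called for 923 of 26882 genes (3.43%), 391 (1.45%) with the difference moving toward higher in SF1 at low P and 532 (1.98%) moving the other way. Of the 923, 257 were called between the lines at high P only, 293 at low P only, 250 at both in the same direction, 113 at both in opposite directions and 10 at neither. The number called depended on single libraries and settings. It was 1331 without the first SM1 high P library and 597 without the third. It was 564, 492 and 482 without the first, the second or the third SF1 high P library. Among low P libraries, it was 460 without the first of SF1, 471 without the third of SF1 and 465 without the second of SM1.

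The gene models with the smallest interaction p in each direction, a choice also made after the data were seen, mostly stood near 0 in one line at high P and well above it in that line at low P. Zm00001d012924 stood at 0.108, 0.0893 and 0.0449 CPM in SF1 at high P and at 10.1, 8.96 and 10.4 CPM at low P. In SM1 it stood at 14, 17 and 14.9 CPM at high P and at 9.31, 10.5 and 10.8 CPM at low P. The lines were thus apart at high P and overlapped at low P. F160 had the SF1 pattern, with 0 counts in its 3 high P libraries and a mean of 8.72 CPM at low P. Zm00001d016907 stood at 0.054, 0.134 and 0.404 CPM in SF1 at high P and at 74.8, 67.3 and 69.1 CPM at low P. Its SM1 values were 58.5, 60.7 and 67.5 CPM at high P and 107, 114 and 104 CPM at low P. Here F160 stood with SM1, at a mean of 68.7 ± 2.07 CPM at high P (SD, n = 3). EP1, F2 and F142 were low at high P, as SF1 was. EP1 ranged from 0.806 to 3.76 CPM, F2 from 0.221 to 6.34 CPM and F142 from 0.237 to 1.65 CPM. At low P their means were 58.6, 74.6 and 86.7 CPM.

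In the other direction, Zm00001d008485 stood at 12.4, 10.4 and 11.9 CPM in SF1 at high P and at 5.01, 5.02 and 5.07 CPM at low P. SM1 stood at 0.106, 0.0369 and 0.0507 CPM at high P and at 3.87, 4.4 and 4.18 CPM at low P. Zm00001d019862 was low in both lines at high P, at 1.4, 1.07 and 0.854 CPM in SF1 and 0.266, 0.0369 and 0.152 CPM in SM1. At low P it stood at 0.788, 0.422 and 0.815 CPM in SF1 and at 21.6, 22.5 and 17.9 CPM in SM1, so the order of the lines turned. The interaction log2 fold changes of these 4 were 7.44 ± 0.28, 7.6 ± 0.33, -7.14 ± 0.31 and -7.84 ± 0.55 (SE, n = 3 per group), in the order given. Their edgeR adjusted p-values ran from 2.89e-07 to 5.2e-05.

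**Figure D5:**
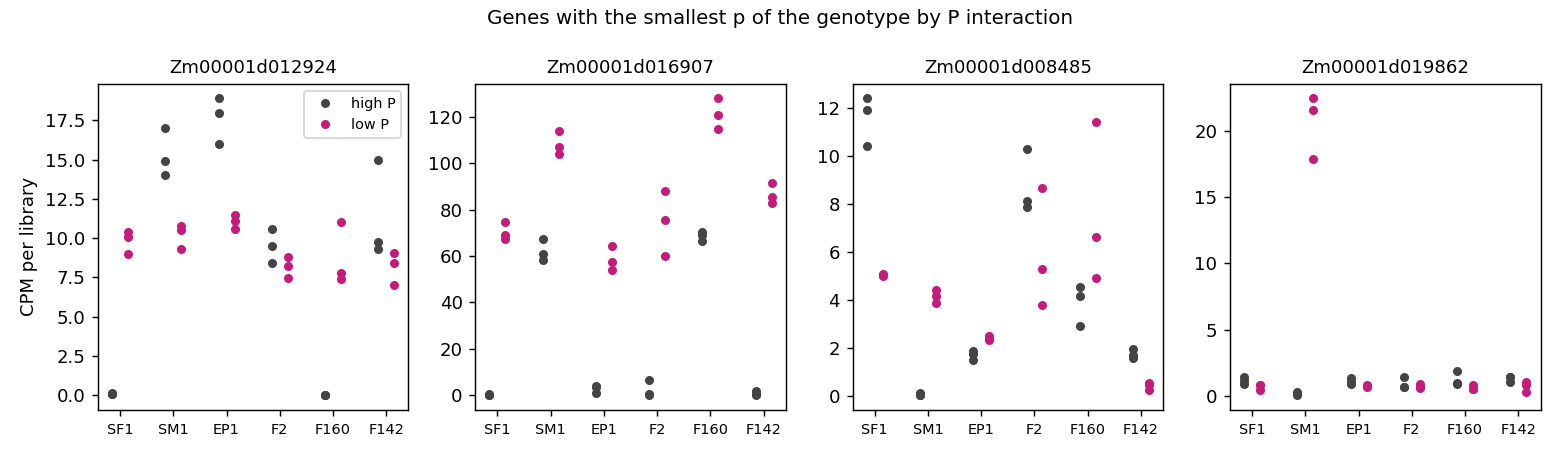
CPM of the 4 gene models with the smallest interaction p, 2 per direction, in each library of the 6 lines at high P (grey) and low P (magenta), on linear axes that differ between panels. Zm00001d012924 and Zm00001d016907 are near 0 in SF1 at high P, and Zm00001d008485 and Zm00001d019862 in SM1 at high P.

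The organelle genes were the part of the table that could be named. Mitochondria carry their own small genome with genes for respiratory chain subunits, ribosomal proteins and ribosomal RNAs, and its transcripts mostly lack the poly(A) tails of nuclear messages. Of 14 mitochondrial features tested at high P, 6 were called lower in SF1 and 0 higher, a share of 42.9% against 18.1% lower over all tested genes. A feature low in SF1 can pass the filter on low counts through SM1 alone, so no weight rests on this share. With no filter, 6 of 98 mitochondrial features were called lower and 1 higher, against 5012 lower and 5208 higher of 34219 genes. The mitochondrial group was singled out after its values were seen. The median log2 fold change of the 14 was -0.76. The large ribosomal RNA rrn26 stood at 323, 272 and 253 CPM in SF1 and at 392, 508 and 426 CPM in SM1, with no overlap. Its log2 fold change was -0.64 ± 0.15 (SE, n = 3 per line; edgeR adjusted p = 0.0156). The call was lost without the second or the third SF1 library (edgeR adjusted p = 0.0655 and 0.0652). The small ribosomal RNA rrn18 had means of 52.5 ± 5.28 CPM in SF1 and 66.2 ± 10.1 CPM in SM1 (SD, n = 3), and its edgeR adjusted p was 0.106. nad4, a subunit of respiratory complex I, stood at 0.54, 0.357 and 0.449 CPM in SF1 and at 1.28, 1.18 and 1.17 CPM in SM1, with a log2 fold change of -1.42 ± 0.27 (edgeR adjusted p = 0.00626). The other 4 called features were cox3, a subunit of cytochrome c oxidase, the ribosomal protein gene rps2B, and the open reading frames orf110-c and orf101-a. Each of these 4 lost its call in 6 to 10 of its alternatives. They were low, with SF1 means of 0.32 to 0.673 CPM and SM1 means of 1.01 to 1.46 CPM. Mitochondrial features together took 0.0326% to 0.0409% of counts in the SF1 libraries and 0.0425% to 0.0638% in the SM1 libraries at high P. At low P, 13 of 19 tested features were called lower in SF1 and 1 higher. Over all genes tested at low P, 20.3% were lower and 20.1% higher, and the same limit of the filter holds. The number called at high P depended on single libraries: it was 2, 1 and 1 without the first, the second or the third SF1 library, 5 without the first SM1 library and 3 without the second or the third. The mitochondrial share of counts moved with the line, and its part in the calls was not tested.

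Other pairs of lines in the table give the scale of the difference between SF1 and SM1. At high P, 8387 of 25536 genes (32.8%) were called between EP1 and F2, and 11024 of 25049 (44.0%) between F142 and F160. At least 2-fold differences were called for 20.3% and 16.0% of tested genes, beside 21.1% between SF1 and SM1. The replicate spread that edgeR estimated was 0.22 for EP1 and F2 and 0.15 for F142 and F160, beside 0.222 for SF1 and SM1, and a smaller spread lets smaller differences be called. Silence by the same rule was found for 129 of the genes expressed in EP1 (0.579%) and 202 of those expressed in F2 (0.915%), for 76 of those expressed in F142 (0.343%) and for 27 of those expressed in F160 (0.121%). The shares of SF1 and SM1 were 1.18% and 0.948%, the second close to that of F2. A count of 0 also depends on the sequencing depth of the silent line, and no test was made between the pairs.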

How the data were processed

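Per the labels' protocols, total root RNA was purified with a plant RNA kit, and NEBNext Ultra reagents were used for library construction. Per the submitters' processing notes, reads went through fastp, HISAT2 and HTSeq with the B73 RefGen_v4 build; the sources used here give neither versions nor strand settings, so overlapping, antisense and near-identical genes cannot be separated. The authors deposited raw read counts per gene, which entered every test. The deposited FPKM values equalled counts scaled by gene length and library total in 1067424 of 1067424 values above 0 (relative tolerance 0.001), and served only for levels per length.

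Lines were compared with edgeR's quasi-likelihood test (edgeR 4.0.16, limma 3.58.1, R 4.3.3) with TMM factors and the filterByExpr filter; p-values were adjusted by Benjamini-Hochberg over all tested genes, and the threshold was 0.05. A positive log2 fold change is higher in SF1. The printed SE is approximate and was obtained by dividing the size of a log2 fold change by the root of its F value. An exact permutation test with 3 against 3 cannot go below 0.1. CPM used TMM factors of the 36 libraries of the table. The models were tested on simulated data. Correlations of profiles used log2(CPM + 0.5).

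Gene models were named by rule: 2 per direction by fold, among called genes without overlap and with 5 CPM in the higher line; the others were chosen after their values were seen. Members and gene lists were chosen with earlier results of these data known. IDs were looked up in a RefSeq gene table of a later B73 assembly. The second count table was not used. Alternatives were RLE and total-count scaling, DESeq2 1.42.0, limma-voom, other filters, a joint fit, a replicate block, and leaving out each library.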

Additional observations from a re-analysis of the deposited data

Results flagged for a closer look

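The difference between SF1 and SM1 at low P departed from that at high P for 923 genes in the interaction test. Among the gene models with the smallest p, the interaction log2 fold change was 7.44 for Zm00001d012924, 7.6 for Zm00001d016907, -7.14 for Zm00001d008485 and -7.84 for Zm00001d019862. Of the gene models with the largest fold at high P, the interaction was called for Zm00001d003090, at -6.98 (edgeR adjusted p = 0.0283), and for Zm00001d043124, at -6.91 (edgeR adjusted p = 0.0189). Zm00001d037149 and Zm00001d035413, chosen the same way, were not called (edgeR adjusted p = 0.194 and 0.462). All 4 were chosen for their fold at high P, which the interaction test uses again, so a smaller difference at low P is in part built in and these calls are no independent result. The first 2 had 0 counts in SM1 at high P, so the size of the fitted interaction depends on the prior count and is no bound.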

How the results depend on the processing

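The number of genes called between SF1 and SM1 at high P, 9464 in the reported fit, stayed within 1.5 times of that over its 14 alternatives, from 7201 to 12427, and the count at low P from 8447 to 12158. Under scaling by total counts the median log2 fold change was 0.067 at high P and 0.068 at low P, against 0.001 and 0.007 under TMM. The 923 interaction calls became 1974 with DESeq2, 1745 in the joint fit, 607 with the replicate block, and 460 to 1331 when 1 library was left out. The 265 genes expressed in SF1 and silent in SM1 became 101 at 5 CPM, 429 when up to 3 counts were allowed, and 275 to 325 with 1 library left out. The 208 genes of the reverse set became 56, 382 and, with silence under 0.1 CPM, 348, and 225 to 266 with 1 library left out. The 6 mitochondrial features called lower became 3 with a filter of 1 CPM, 2 with the replicate block, and 1 to 5 with 1 library left out. Besides rrn26, cox3 lost its call in 10 of 14 alternatives, orf101-a in 7 of 13, and rps2B and orf110-c in 6 of 13; nad4 and the 6 nuclear gene models described at high P kept theirs in all 14. Deviations of same-numbered libraries of both lines correlated at -0.0719, 0.00693 and -0.0614 at high P. At low P they correlated weakly, at 0.0882 to 0.109, with -0.0743 to -0.0172 for other numbers. Deviations within a group of 3 balance each other, so the negative values add no separate evidence. This is at most a hint of pairing at low P, from the data and not from the labels. As not every pair was over 0.1, the numbers were not taken to pair the libraries; with the replicate block 7769 genes were called at high P. At these depths a count of 0 in 1 high P library still allows a level of up to about 0.111 to 0.162 CPM.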
